A study of Homo sapiens and Mus musculus with 26 samples.

Results

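The pluripotency genes described here are 10 genes that embryonal carcinoma cells share with embryonic stem cells: POU5F1, NANOG, SOX2, SALL4, PRDM14, ZFP42, DPPA4, L1TD1, LIN28A and TDGF1. They were chosen by name, with earlier results of these data known. All 10 were found among 16694 named genes of the table for 2102EP cells and among 17335 of the table for 2102EP-C1 cells. All 10 passed the filter on low read counts in both. The study asked how perfluorooctanesulfonic acid (PFOS), a persistent perfluorinated surfactant, alters testicular germ cell tumor (TGCT) cells. 2102EP is a human embryonal carcinoma line, and 2102EP-C1 is 1 isogenic clone of it that is resistant to cisplatin, so that results in it describe that clone. PFOS was given over 4 days, to 2102EP at 10 nM or 5 µM (2 cultures per dose) and to 2102EP-C1 at 10 nM (4 cultures), while 2 and 4 control cultures had the vehicle dimethyl sulfoxide (DMSO). Polyadenylated RNA was sequenced, and levels are in log2 CPM, where CPM is a gene's read count, plus a small prior count, scaled to a common library size.

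Embryonal carcinoma cells are malignant counterparts of the pluripotent cells of the early embryo. Their identity rests on a circuit in which the transcription factors OCT4 (the product of POU5F1), SOX2 and NANOG bind together at regulatory elements of many genes, their own included, and keep the cells from differentiating. Around this core work further transcription and chromatin factors, RNA-binding proteins of the LIN28 family that block maturation of the let-7 microRNAs, and signaling of the Nodal type through the co-receptor encoded by TDGF1.

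The labelled tumor type was checked against 10 embryonal carcinoma markers, some of them members of the 10 genes themselves, and all 10 markers averaged 1 CPM or more in every group of both lines. TNFRSF8, which encodes the embryonal carcinoma antigen CD30, averaged 133 CPM in 2102EP controls and 15.1 CPM in 2102EP-C1 controls. Of the seminoma and germ cell markers, SOX17 was in neither table, but those present summed to 265 to 267 CPM in 2102EP controls and 269 to 281 CPM in 2102EP-C1 controls. TFAP2C averaged 134 and 103 CPM there and PDPN 111 and 120 CPM. In 2102EP TFAP2C was as high as TNFRSF8 and PDPN was lower, while in 2102EP-C1 both were higher than TNFRSF8. The other seminoma and germ cell markers present in 2102EP controls were lower: PRDM1 at 14.8, KIT at 4.03, SYCP3 at 1.32 and NANOS3 at 0.434 CPM. In 2102EP-C1 controls PRDM1 averaged 28.1 and KIT 15.9 CPM. The 10 embryonal carcinoma markers together summed to 8264 to 8398 CPM in 2102EP controls and 6706 to 6991 CPM in 2102EP-C1 controls. AFP, a yolk sac tumor marker, was in neither table, while GPC3 of the same list averaged 18.8 CPM in 2102EP controls and 62.5 CPM in 2102EP-C1 controls. The 3 listed trophoblast markers in the tables summed to 24.4 to 31.3 CPM in 2102EP and 13.2 to 16.1 CPM in 2102EP-C1 libraries. Library depth, as reads on genes, ran from 33.3 to 48.7 M in 2102EP, with 33.3 and 39.1 M in the controls and 41.1 to 48.7 M with PFOS, and 25.6 to 32.8 M in 2102EP-C1. One 2102EP-C1 library, PFOS replicate 1, stood apart from the other libraries of its table. Its root mean square distance to the mean of its own group was 0.361 log2 units, against 0.211 to 0.262 for the other 7 libraries, and its 10 most abundant genes held 6.47% of the reads, against 5.10 to 5.50%. Results in 2102EP-C1 that rest on PFOS libraries are therefore for the most part also given without it.

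For 5 of the 10 genes (NANOG, SOX2, DPPA4, L1TD1 and ZFP42) RefSeq promoter sequence was searched. The 250 bases before the start of NANOG and SOX2 are shown because the core factors bind their own genes and because the 2 genes moved in opposite directions in 2102EP cells. The letters searched, on both strands, were ATGCAAA, the core of the octamer that POU factors bind, and ACAATG, a core that SOX factors bind. Capitals mark the matches. The sequences are RefSeq GRCh38.p14, read 5' to 3' on the plus strand, at chr12:7789152-7789401 for NANOG and chr3:181711675-181711924 for SOX2.
NANOG: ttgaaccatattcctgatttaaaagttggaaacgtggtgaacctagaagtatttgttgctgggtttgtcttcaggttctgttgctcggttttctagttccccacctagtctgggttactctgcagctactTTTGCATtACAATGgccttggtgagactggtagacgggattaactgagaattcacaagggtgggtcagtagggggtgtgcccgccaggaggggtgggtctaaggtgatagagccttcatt
SOX2: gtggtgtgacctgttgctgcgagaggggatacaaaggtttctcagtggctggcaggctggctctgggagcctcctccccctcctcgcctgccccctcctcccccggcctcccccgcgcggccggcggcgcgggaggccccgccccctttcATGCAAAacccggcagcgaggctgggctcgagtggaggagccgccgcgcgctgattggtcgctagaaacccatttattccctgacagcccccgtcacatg
The NANOG sequence holds TTTGCAT, the octamer core on the other strand, from 120 to 114 bases before the start, followed after 1 base by ACAATG from 112 to 107 bases before it. The SOX2 sequence holds ATGCAAA from 100 to 94 bases before the start and no ACAATG on either strand. Neither set of letters occurs in the same window of DPPA4, L1TD1 or ZFP42. Of 35116 promoters of this length, 3.94% hold the octamer core, 9.29% the SOX core and 0.541% both. A match of letters is not a measured binding site.

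**Figure D1:**
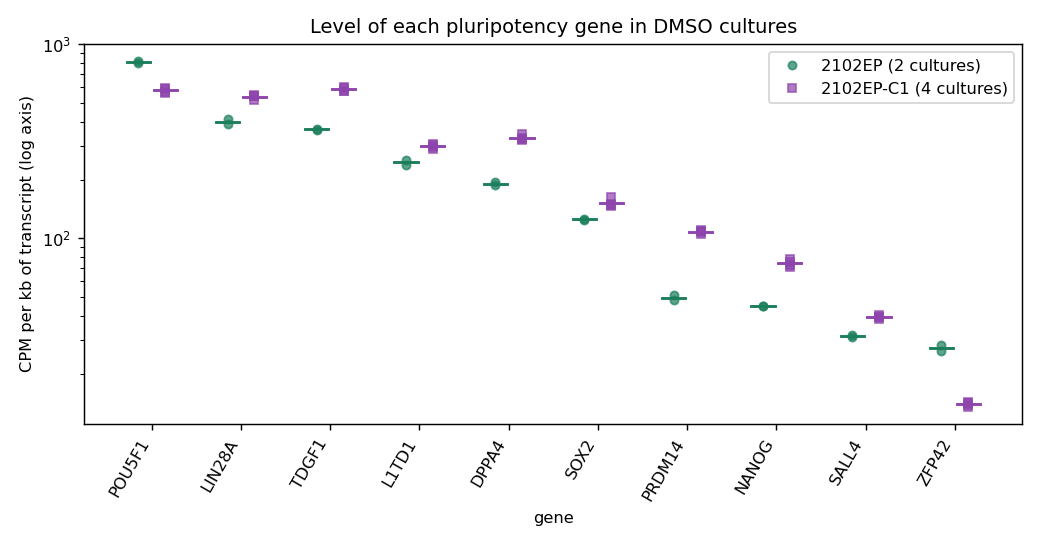
Level of each gene in the DMSO cultures, in CPM per kb of transcript on a log axis, for 2102EP (circles, 2 cultures) and 2102EP-C1 (squares, 4 cultures), with a line at each mean. POU5F1 has the highest level in 2102EP at 809 CPM per kb, and ZFP42 the lowest in both lines.

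To compare levels between genes, CPM was divided by the length of the main transcript (GENCODE 44). In 2102EP controls POU5F1 (chr6:31164337-31180731, GRCh38) had the highest level, 809 ± 11.9 CPM per kb (SD, n = 2). It was followed by LIN28A (chr1:26410817-26429728) at 400 ± 14.4, TDGF1 (chr3:46574534-46582457) at 365 ± 1.46, L1TD1 (chr1:62194849-62212328) at 247 ± 9.78 and DPPA4 (chr3:109326144-109337546) at 191 ± 5.50 CPM per kb. SOX2 (chr3:181711925-181714436) reached 125 ± 0.240 CPM per kb. The lowest levels were those of PRDM14 (49.5 ± 2.02), NANOG (chr12:7787794-7799146, 44.6), SALL4 (chr20:51782331-51802521, 31.5 ± 0.50) and ZFP42 (chr4:187995771-188005046, 27.3 ± 1.40 CPM per kb). The 2 control cultures of one gene did not overlap with those of the next in this order. In 2102EP-C1 controls TDGF1 (586 ± 14.8 CPM per kb, n = 4) and POU5F1 (579 ± 17.7) led, and these 2 overlapped between cultures. LIN28A followed at 537 ± 14.3, DPPA4 at 329 ± 9.88, L1TD1 at 298 ± 7.94 and SOX2 at 152 ± 7.22 CPM per kb. PRDM14 (108 ± 2.12), NANOG (74.6 ± 2.88), SALL4 (39.2 ± 0.625) and ZFP42 (13.99 ± 0.369 CPM per kb) again came last, in the same order as in 2102EP. The place of POU5F1 depends on the length used: with all annotated exons joined, LIN28A led in both lines and POU5F1 came 2nd in 2102EP and 4th in 2102EP-C1.

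The 10 genes took 0.567 and 0.569% of the reads in 2102EP controls, and 0.742 to 0.752% in 2102EP-C1 controls. Between the lines, POU5F1 and ZFP42 had the lower values in the clone, and the other 8 genes the higher ones. Since the 2 tables were normalized separately, these levels are set side by side and the difference was not tested.

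**Figure D2:**
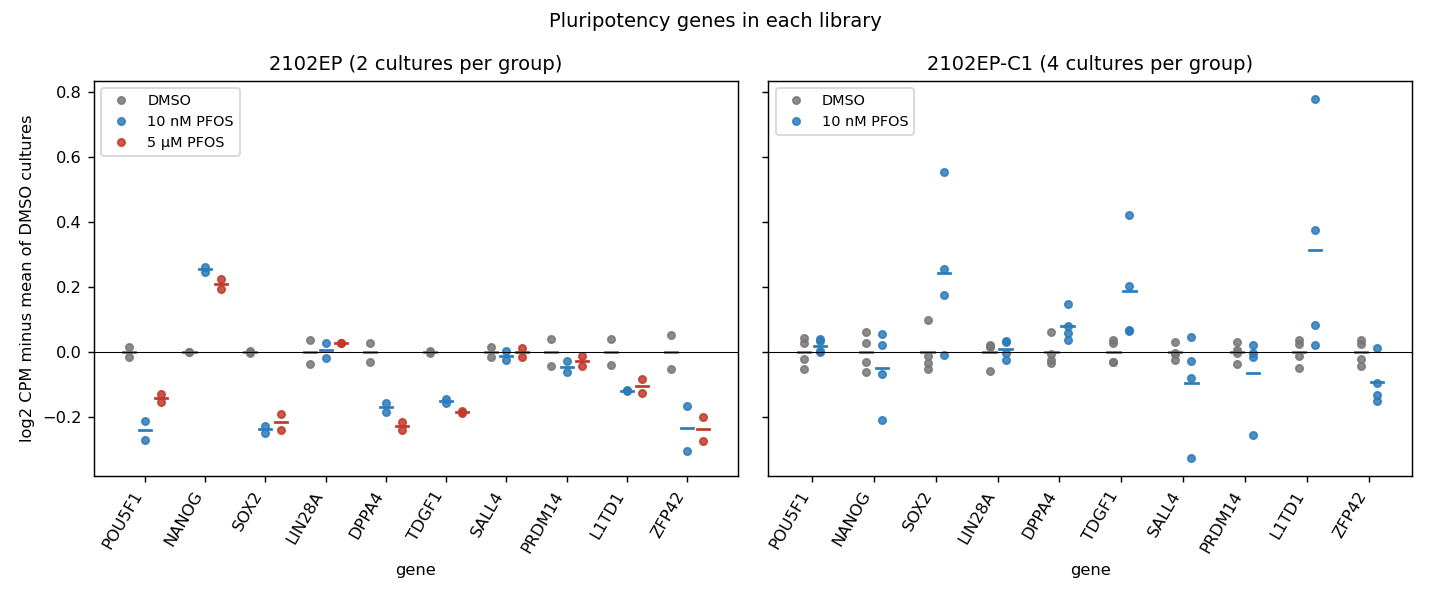
Log2 CPM of each gene minus the mean of the DMSO cultures of its line, with 1 point per library and a line at each group mean, for 2102EP (left) and 2102EP-C1 (right). In 2102EP NANOG is higher in all 4 PFOS libraries, and POU5F1, SOX2, DPPA4, TDGF1, L1TD1 and ZFP42 are lower in all 4. In 2102EP-C1 the highest SOX2, TDGF1 and L1TD1 points belong to PFOS replicate 1.

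In 2102EP cells treated with 10 nM PFOS, 7 of the 10 pluripotency genes changed by limma with Benjamini-Hochberg adjustment over all genes (threshold 0.05). NANOG rose, and POU5F1, SOX2, ZFP42, DPPA4, TDGF1 and L1TD1 fell. LIN28A, SALL4 and PRDM14 did not pass the threshold. The changes were small: NANOG was 19.3% higher, and the 6 genes that fell were between 7.89% (L1TD1) and 15.4% (POU5F1) lower. Many genes changed in this comparison: 25.7% of the 16694 genes tested were called (12.8% higher and 12.9% lower). Scaling by total reads, an alternative chosen after seeing the data, turned 49.8% of the calls being higher into 68.5% and shifted the median of all genes from 0.01 to 0.06, with 6 of the 10 genes called. Among the 3746 genes that averaged at least 6 log2 CPM, as all 10 do in 2102EP, 47.1% were called. The median log2 fold change was -0.13 over the 10 genes and 0.01 over all genes tested. Treated and control cultures did not overlap for 7 of the 10 genes and for 59.9% of all genes, and an unadjusted p under 0.05 was reached by the same 7 genes and by 36.8% of all genes. In RNA from whole cultures, a loss of cells that express a gene and a lower level in each cell cannot be told apart.

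Among the 3 core factors, NANOG and the other two moved apart. NANOG, a homeodomain factor that maintains the undifferentiated state, stood at 7.85 and 7.85 log2 CPM in the controls, at 8.10 and 8.12 with 10 nM PFOS and at 8.08 and 8.05 with 5 µM PFOS. Its 4 treated libraries were all above both controls, by 0.25 log2 units at 10 nM (SE 0.039, limma adjusted p = 1.58e-04) and 0.21 at 5 µM (adjusted p = 8.35e-04). POU5F1, which encodes the POU factor OCT4, stood at 10.17 and 10.14 log2 CPM in the controls, at 9.94 and 9.89 with 10 nM and at 10.00 and 10.03 with 5 µM PFOS. It was below both controls in all 4 treated libraries and lower at 10 nM than at 5 µM. The fitted log2 fold changes were -0.24 (SE 0.039, limma adjusted p = 2.60e-04) at 10 nM and -0.14 (adjusted p = 0.0125) at 5 µM. SOX2, the HMG-box partner of OCT4, went from 8.30 in both controls to 8.07 and 8.05 log2 CPM at 10 nM and to 8.11 and 8.06 at 5 µM PFOS. Again no treated library reached the level of a control, and the log2 fold changes were -0.24 (SE 0.039, limma adjusted p = 3.31e-04) and -0.21 (adjusted p = 7.60e-04).

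Because a difference between 2 genes inside one library does not depend on how that library was scaled, the 3 core factors were also compared within libraries. NANOG lay 2.29 and 2.32 log2 units below POU5F1 in the 2102EP controls, 1.84 and 1.77 below it at 10 nM and 1.92 and 1.98 below it at 5 µM PFOS. The gap was thus narrower in each treated library than in either control. NANOG also lay 0.44 and 0.45 log2 units below SOX2 in the controls, while the difference averaged 0.05 at 10 nM and -0.02 at 5 µM PFOS, so that the 2 genes had nearly equal log2 CPM after treatment. SOX2 minus POU5F1 averaged -1.86, -1.85 and -1.93 in the same order of groups, with overlap between controls and 10 nM cultures. The 5 µM cultures, at -1.89 and -1.97, both lay below the controls, at -1.87 and -1.84. With 2 cultures against 2, the smallest two-sided p of an exact permutation test is 0.333, so no p is given for these differences.

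**Figure D3:**
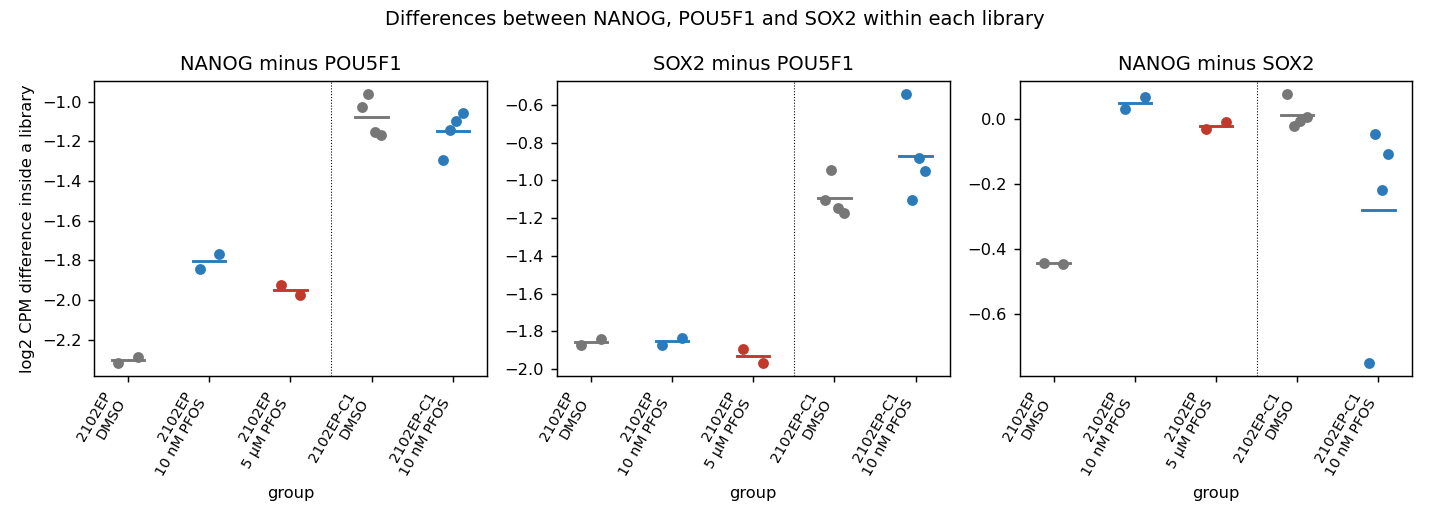
Difference in log2 CPM between pairs of core factors inside each library, with 1 point per library and a line at each group mean, for the 3 groups of 2102EP and the 2 groups of 2102EP-C1. NANOG minus POU5F1 and NANOG minus SOX2 are higher in all PFOS libraries of 2102EP than in its controls, while SOX2 minus POU5F1 stays between -1.97 and -1.84.

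NANOG has copies elsewhere in the genome, and the authors' counting could split reads between them. NANOGP8, a retrocopy that is itself annotated as protein coding, had 36.9 and 39.5 CPM in 2102EP controls, 47.0 and 50.2 CPM at 10 nM and 44.5 and 45.0 CPM at 5 µM PFOS, beside 231 CPM for NANOG in the controls. Of all 50-base windows in its annotated transcripts, 70.7% occur letter for letter in transcripts of NANOG. It rose, as NANOG did, by 0.35 log2 units at 10 nM (limma adjusted p = 3.13e-04) and 0.23 at 5 µM (adjusted p = 0.00677), and whether its reads come from NANOG was not tested. NANOGP1, of whose windows 47.5% are shared, had 15.1 to 16.5 CPM in all 2102EP libraries, with log2 fold changes of -0.01 and -0.07. The named copies of POU5F1 and TDGF1 were lower, with at most 1.44 CPM for POU5F1B and 3.79 CPM for TDGF1P3 in any 2102EP library.

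DPPA4, a chromatin-bound developmental pluripotency factor, fell from 9.09 and 9.03 log2 CPM in the controls to 8.90 and 8.87 at 10 nM and to 8.84 and 8.82 at 5 µM PFOS. TDGF1, which encodes the Nodal co-receptor Cripto, fell from 9.47 and 9.48 to 9.33 and 9.32 at 10 nM and to 9.30 and 9.29 at 5 µM PFOS. In neither gene did a treated library overlap with the controls. The log2 fold changes of DPPA4 were -0.17 at 10 nM (SE 0.039, limma adjusted p = 0.00417) and -0.23 at 5 µM (adjusted p = 4.36e-04), and those of TDGF1 were -0.15 (SE 0.037, adjusted p = 0.00636) and -0.18 (adjusted p = 0.00157). ZFP42, also known as REX1, a zinc finger gene used as a marker of pluripotent cells, had 6.12 and 6.23 log2 CPM in the controls, 6.01 and 5.87 at 10 nM and 5.98 and 5.90 at 5 µM PFOS. It was the least abundant of the genes that changed, all its treated libraries lay below both controls, and its log2 fold changes were -0.24 at both doses (SE 0.058, limma adjusted p = 0.00634 and 0.00606). L1TD1, an RNA-binding protein gene derived from a LINE-1 element, had 9.84 and 9.92 log2 CPM in the controls, 9.76 and 9.77 at 10 nM and 9.76 and 9.80 at 5 µM PFOS. Its treated libraries lay below the controls, but it passed the threshold at 10 nM (log2 fold change -0.12, limma adjusted p = 0.0389) and not at 5 µM (-0.10, adjusted p = 0.0656).

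LIN28A, whose protein blocks let-7 maturation, had 10.60 and 10.67 log2 CPM in the controls and 10.62 to 10.66 in the 4 treated libraries. SALL4, a zinc finger factor of stem and germ cells, had 7.38 and 7.34 in the controls and 7.33 to 7.37 with PFOS. PRDM14, a factor of the PR domain family that acts in pluripotent and primordial germ cells, had 6.85 and 6.77 in the controls and 6.75 to 6.80 with PFOS. In these 3 genes the treated and control cultures overlapped. The 95% interval of the log2 fold change at 10 nM PFOS ran from -0.08 to 0.09 for LIN28A, from -0.10 to 0.08 for SALL4 and from -0.14 to 0.05 for PRDM14.

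**Figure D4:**
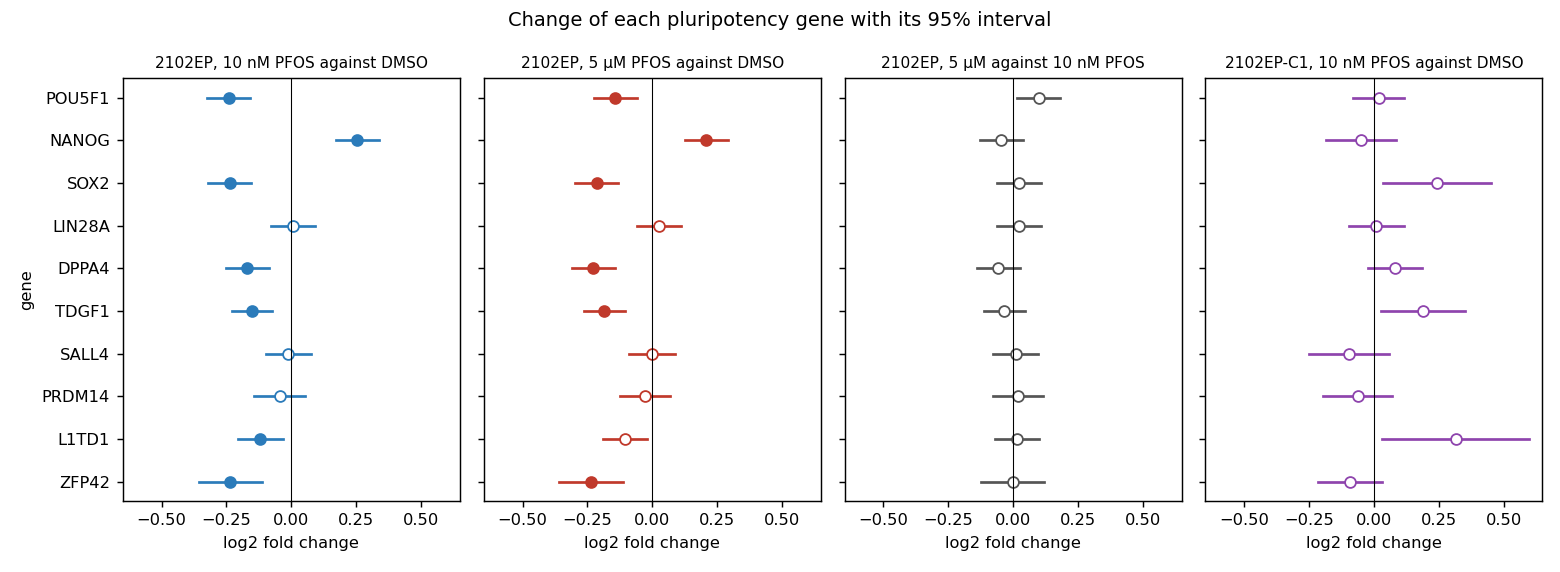
Log2 fold change of each gene with its 95% interval from limma in the 4 comparisons, where filled points passed an adjusted p of 0.05. In 2102EP 7 genes pass at 10 nM and 6 at 5 µM PFOS, and none pass between the doses or in 2102EP-C1, where the intervals of SOX2, TDGF1 and L1TD1 lie above 0 before adjustment.

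At 5 µM PFOS 6 of the 10 genes changed in 2102EP, NANOG upward and POU5F1, SOX2, DPPA4, TDGF1 and ZFP42 downward, where 26.9% of all genes tested were called (13.2% higher and 13.6% lower). Treated and control cultures did not overlap for 7 of the 10 genes, against 61.8% of all genes, and 7 had an unadjusted p under 0.05, against 37.7% of all genes. The median log2 fold change was -0.12 over the 10 genes and 0.01 over all genes. The 2 doses were set against the same 2 control cultures, so both comparisons share any deviation of those controls. Compared directly, 5 µM and 10 nM PFOS differed in 0 of the 10 genes and in 0 of all genes tested (0%) by limma at an adjusted p of 0.05. Voom on the recovered reads also called 0 genes. The cultures of the 2 doses did not overlap for 5 of the 10 genes, against 34.8% of all genes. At an unadjusted p under 0.05 there were 552 genes (3.31%), 668 by voom, and of the 10 genes only POU5F1, which was 0.10 log2 units higher at 5 µM (95% interval 0.02 to 0.18, limma adjusted p = 1.00). For the other 9 genes the difference between the doses lay between -0.06 and 0.02 log2 units. The 95% interval was narrowest for TDGF1, from -0.11 to 0.05, and widest for ZFP42, from -0.12 to 0.12. With 2 cultures per dose, differences within these intervals are not excluded. A difference can also miss the adjusted threshold although its interval lies apart from 0, as that of POU5F1 did.

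The calls in 2102EP rest on few cultures. Without replicate 2 of the 10 nM group 3 of the 7 calls were kept, those of NANOG, POU5F1 and SOX2, while DPPA4 (limma adjusted p = 0.0548), TDGF1 (0.0562), L1TD1 (0.14) and ZFP42 (0.13) missed the threshold. The L1TD1 call was also lost without replicate 1 of that group (adjusted p = 0.157), or without control replicate 2 (0.15). At 5 µM the POU5F1 call was lost without either treated replicate (adjusted p = 0.141 and 0.0854) and that of ZFP42 without replicate 2 (0.0933), and L1TD1 was called without control replicate 1 (adjusted p = 0.0106). The 2 controls also lay apart from the treated libraries in depth, with fewer reads, and in normalization factor, at 0.971 and 0.983 against 1.01 to 1.02, and whether either has a part in the changes was not tested.

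The GC content of the transcript moved with the fold changes. Over the 15191 genes with a GENCODE transcript, the log2 fold change at 10 nM PFOS had a Spearman rho of -0.27 with GC content. The fifth of genes with the lowest GC content had a median of 0.11 and the fifth with the highest a median of -0.05. The 10 genes span 40.4% GC (L1TD1) to 57.8% GC (POU5F1), with NANOG at 44.7% and SOX2 at 50.7%. After the values of each library were centred within 20 bins of GC content, an alternative chosen after seeing the data, the same 7 genes changed at 10 nM PFOS, by 0.24 log2 units for NANOG, -0.18 for POU5F1, -0.20 for SOX2, -0.23 for DPPA4, -0.19 for TDGF1, -0.19 for L1TD1 and -0.27 for ZFP42. At 5 µM PFOS 7 genes were called in this way, with L1TD1 at -0.17 log2 units (limma adjusted p = 3.38e-04).

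In 2102EP-C1 cells, 10 nM PFOS changed 0 of the 10 genes by limma at an adjusted p of 0.05, where 0 of 17256 genes tested were called (0%) and 2768 (16%) had an unadjusted p under 0.05. Voom on the recovered reads also called 0 genes, and 2712 of all genes tested had an unadjusted p under 0.05 by it. Without PFOS replicate 1, 7 of all genes and 0 of the 10 genes were called, and 2187 genes had an unadjusted p under 0.05. Treated and control cultures did not overlap for 1 of the 10 genes, TDGF1, and for 9.75% of all genes. Without PFOS replicate 1 they did not overlap for 2, TDGF1 and ZFP42, and for 11.6% of all genes. The median log2 fold change was 0.01 over the 10 genes and 0.00 over all genes tested, and 0.02 and 0.00 without PFOS replicate 1. The fold changes moved with GC content here too, with a Spearman rho of -0.41 over 15867 genes, and -0.32 without PFOS replicate 1.

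Of the core factors in 2102EP-C1, POU5F1 had 9.62 to 9.72 log2 CPM in the 4 controls and 9.67 to 9.71 with PFOS, and NANOG had 8.53 to 8.66 in controls and 8.38, 8.53, 8.62 and 8.65 with PFOS. Both genes overlapped between the groups, with log2 fold changes of 0.02 (95% interval -0.08 to 0.12) and -0.05 (-0.18 to 0.08). These intervals, unlike those in 2102EP, include 0, but the difference between the lines was not tested. Without PFOS replicate 1 the log2 fold change of NANOG was 0.0029. SOX2 had 8.53 to 8.68 log2 CPM in controls and 9.13, 8.57, 8.83 and 8.76 in PFOS replicates 1 to 4. Replicate 2 lay within the controls, the other 3 lay above them, and replicate 1 was highest.

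The 3 largest values in 2102EP-C1 were those of L1TD1 (log2 fold change 0.32, SE 0.13, limma adjusted p = 0.292), SOX2 (0.24, SE 0.095, adjusted p = 0.286) and TDGF1 (0.19, SE 0.075, adjusted p = 0.286), each at an unadjusted p under 0.05. L1TD1 had 10.11 to 10.19 log2 CPM in controls and 10.94, 10.18, 10.53 and 10.24 with PFOS, and TDGF1 had 10.131 to 10.199 in controls and 10.59, 10.23, 10.23 and 10.37 with PFOS. In both genes PFOS replicate 1, the library that stood apart, was the highest, and for TDGF1 every treated library was above every control. Without that library the log2 fold changes were 0.16 for L1TD1, 0.14 for SOX2 and 0.11 for TDGF1, with limma adjusted p of 0.341, 0.336 and 0.343. With GC-centred values of all 8 libraries they were 0.25, 0.26 and 0.14. It was also the lowest treated library for NANOG, SALL4 (7.35 log2 CPM, against 7.60 to 7.72 in the other 3) and PRDM14 (7.69, against 7.93 to 7.96). DPPA4 had 9.81 to 9.90 log2 CPM in controls and 9.88 to 9.99 with PFOS, LIN28A 11.001 to 11.08 and 11.03 to 11.09, and ZFP42 5.17 to 5.25 and 5.06 to 5.23. The groups overlapped in these 3 genes.

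The same 10 nM dose can be read side by side in both lines. POU5F1 had a log2 fold change of -0.24 in 2102EP and 0.02 in 2102EP-C1, NANOG 0.25 and -0.05, SOX2 -0.24 and 0.24, TDGF1 -0.15 and 0.19, L1TD1 -0.12 and 0.32, DPPA4 -0.17 and 0.08, and ZFP42 -0.24 and -0.09. The tables were normalized separately and the lines had 2 and 4 cultures per group, and the differences between the lines were not tested. Within libraries of 2102EP-C1, NANOG minus POU5F1 averaged -1.08 in controls and -1.15 with PFOS, and NANOG minus SOX2 averaged 0.01 and -0.28, the latter from -0.75 in PFOS replicate 1 to -0.04 in PFOS replicate 2. Without PFOS replicate 1 the means with PFOS were -1.10 and -0.12.

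**Figure D5:**
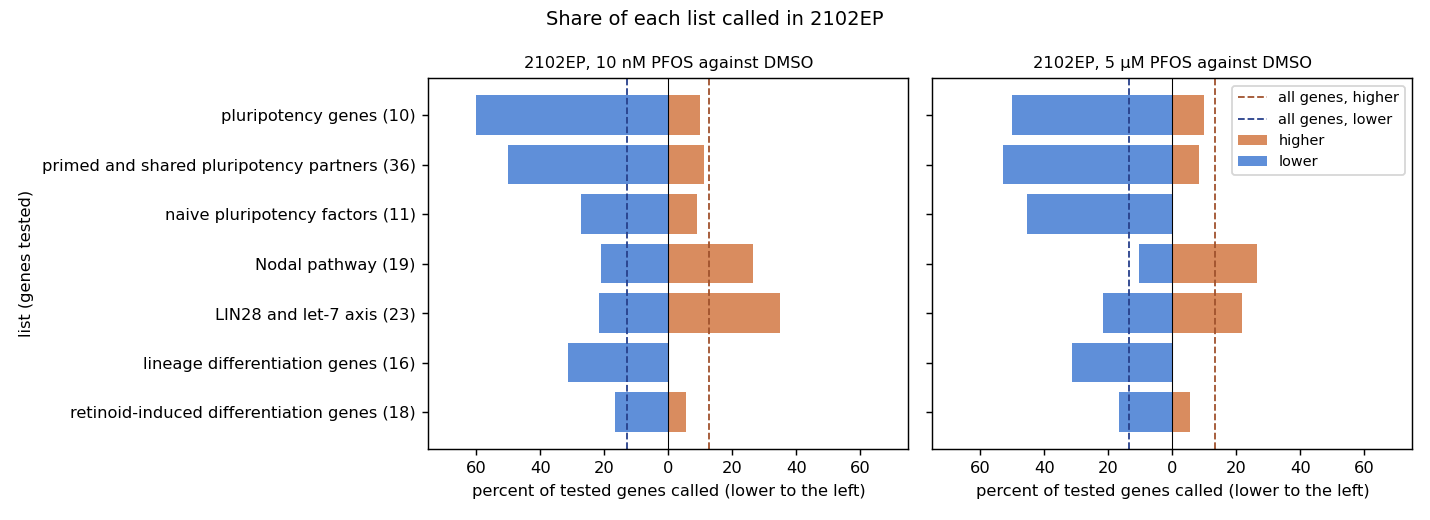
Share of the tested genes of each list that were called higher (right) or lower (left) by limma in 2102EP at 10 nM and 5 µM PFOS, with dashed lines at the shares over all genes tested. In the lists of pluripotency genes and their partners the lower share is the larger one at both doses.

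Other genes of the pluripotency network were counted in lists chosen with earlier results of these data known. Of 36 partners shared with or typical of primed pluripotent cells, 4 rose and 18 fell in 2102EP at 10 nM PFOS, and 3 rose and 19 fell at 5 µM, and 13 were called at neither dose. That is 61.1% of the list at each dose, beside 25.7% and 26.9% of all genes and 47.1% and 46.5% of genes at 6 log2 CPM or more. The median log2 fold change was -0.16 at 10 nM and -0.17 at 5 µM, beside 0.01 over all genes at both doses. The steepest fall was that of UTF1, a chromatin-associated factor of undifferentiated cells, at -0.86 (SE 0.060, limma adjusted p = 9.77e-08) and -0.89 log2 units. SALL1, a relative of SALL4, fell by 0.46 and 0.49 log2 units, and ETV4, an ETS factor, fell by 0.41 at both doses. The surface sialomucin gene PODXL fell by 0.25 and 0.24, and the DNA methyltransferase gene DNMT3B by 0.16 and 0.17. Against this direction, the growth factor gene FGF2 rose by 0.42 log2 units at both doses, the let-7 target and ubiquitin ligase gene TRIM71 by 0.25 and 0.27, and LIN28B, the second LIN28 gene, by 0.17 and 0.18. With GC-centred values 23 genes of the list were called at 10 nM and 22 at 5 µM PFOS, against 22 at both doses as deposited.

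Of 11 tested genes of the naive state, 1 rose and 3 fell at 10 nM and 0 rose and 5 fell at 5 µM PFOS in 2102EP. These are 36.4% and 45.5% of the list, beside 25.7% and 26.9% of all genes. KLF4, a Krüppel-like factor, fell by 0.25 and 0.28 log2 units, the surface protein gene SUSD2 by 0.25 and 0.26, and DPPA3, an oocyte and germ cell factor, by 0.13 and 0.21. TFCP2L1, a factor of the naive network, rose by 0.21 at 10 nM. Without replicate 2 of the 10 nM group 0 genes of this list were called, and without replicate 1 of the 5 µM group 3 were.

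In the Nodal pathway, in which TDGF1 acts, 5 of 19 tested genes rose and 4 fell at 10 nM PFOS, and 5 rose and 2 fell at 5 µM. These are 47.4% and 36.8% of the list, beside 25.7% and 26.9% of all genes and 47.1% and 46.5% of genes at 6 log2 CPM or more. Inhibitors of the pathway moved both ways. The extracellular inhibitor genes CER1 and LEFTY1 rose by 0.42 and 0.24 and by 0.27 and 0.34 log2 units. LEFTY2, another such inhibitor gene, rose by 0.19 at 10 nM. SKIL, a repressor of SMAD signaling, rose by 0.35 and 0.30. Its paralogue SKI fell by 0.14 and 0.13, and the inhibitory SMAD gene SMAD7 fell by 0.15 at 10 nM. GDF3, a ligand of the same family, fell by 0.16 and 0.22. The transducers also moved both ways, as SMAD2 rose by 0.20 and 0.19 and SMAD3 fell by 0.17 at 10 nM. NODAL itself rose by 0.14 log2 units at 5 µM (limma adjusted p = 0.0257). Leaving out either treated replicate reduced the calls to 3 at 10 nM, and to 3 (without replicate 1) or 2 (without replicate 2) at 5 µM.

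In the LIN28 and let-7 axis 8 of 23 genes rose and 5 fell at 10 nM, and 5 rose and 5 fell at 5 µM PFOS. These are 56.5% and 43.5% of the list, beside 25.7% and 26.9% of all genes and 47.1% and 46.5% of genes at 6 log2 CPM or more. Genes of let-7 processing moved both ways, with DROSHA at -0.44 and -0.49, TUT4, which tails the let-7 precursor, at -0.13 and -0.18, and DICER1 at 0.23 and 0.19 log2 units. So did let-7 targets: HMGA1 fell by 0.50 and 0.53, IGF2BP2 by 0.26 and 0.34 and ARID3B by 0.28 and 0.31, while IGF2BP3 rose by 0.24 and 0.19 log2 units. LIN28A itself, as above, was not called. Without replicate 1 of the 10 nM group 8 genes of this list were called, and without replicate 2, 6 were.

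Among the tested genes of differentiated lineages 0 were called higher, beside 12.8% and 13.2% of all genes. Several had low levels in 2102EP controls: TP63 (0.341 CPM), GATA6 (0.486), CXCR4 (1.07), GATA4 (2.41) and KRT7 (2.49 CPM). The SE of these genes at 10 nM PFOS was 0.16 to 0.34 log2 units, so that small changes in them could go uncalled. Of 28 listed genes of the germ layers and trophoblast, 16 were tested in 2102EP, of which 0 rose and 5 fell at each dose (31.25%, near the 25.7% and 26.9% of all genes called). NES, an intermediate filament gene of neural progenitors, fell by 0.21 log2 units at both doses, KDR by 0.17 and 0.24, GATA3 by 0.29 and 0.31, and HAND1 by 0.28 and 0.23. At 10 nM 3 of this list were called without control replicate 2 or PFOS replicate 1, 1 without PFOS replicate 2, and 2 with libraries scaled by total reads. At 5 µM 3 were called without control replicate 2 and 2 without PFOS replicate 1. Of 18 tested genes that retinoic acid induces as embryonal carcinoma cells differentiate, 1 rose and 3 fell at each dose (22.2%, below the share over all genes). HOXB1 fell by 0.40 and 0.55, HOXB2 by 0.36 and 0.46 and GBX2 by 0.22 at both doses, while NRIP1, a nuclear receptor corepressor gene, rose by 0.28 and 0.26 log2 units. Without replicate 2 of the treated group 2 genes of this list were called at either dose. Fibroblast and feeder markers were measured beside these, and 7 of 10 were in the 2102EP table. They summed to 683 to 693 CPM in controls, 651 to 657 at 10 nM and 635 to 642 at 5 µM PFOS, with DCN and LUM not in the table. The lower sum goes with THY1 (343 CPM in controls, 260 and 261 CPM with PFOS), which fell by 0.40 and 0.39 log2 units. PDGFRB rose by 0.30 and 0.29 and COL1A2 by 0.23 and 0.19, COL1A1 fell by 0.16 at 5 µM, and 5 of the 7 had values above 0 at each dose. The part of these markers in the changes was not tested.

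In 2102EP-C1, limma called 0 genes in each of these 6 lists, also without PFOS replicate 1. The smallest unadjusted p of each was 7.05e-04 for HESX1 (log2 fold change 0.31, adjusted p = 0.273) among the partners, 0.00671 for NLRP7 (0.17) in the naive list, 0.0789 for LEFTY2 (0.26) in the Nodal pathway, 0.00879 for XPO5 (-0.19) in the let-7 axis, 0.00446 for PDGFRA (0.33) among lineage genes and 0.00297 for HOXB1 (0.30) among retinoid-induced genes. HOXB1, lower in 2102EP with PFOS, thus had a positive value in the clone. Without PFOS replicate 1 the log2 fold changes were 0.34 for HESX1 (limma adjusted p = 0.0811), 0.17 for NLRP7, 0.26 for LEFTY2, -0.14 for XPO5, 0.29 for PDGFRA and 0.23 for HOXB1. UTF1, which led the partner list in 2102EP, had a log2 fold change of 0.05 in the clone (0.04 without that library), and it averaged 20.18 CPM in controls of the clone against 267 CPM in those of 2102EP.

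Over the 8 libraries of 2102EP-C1, 10206 other genes at 3 log2 CPM or more on average were searched for the patterns most like those of the core factors. For POU5F1 these were HELQ (Pearson r 0.96), BIRC5 (0.93) and MRPL9 (0.93). For NANOG they were ADARB1 (0.98), HACL1 (0.97) and PTPRJ (0.96), and for SOX2 they were UBA3, SBDS and ZCRB1, each with an r of 0.99. These points share the treatment and the library that stood apart, and the search took the highest of many values, so that the r are descriptions. Without that library the same 9 pairs had an r of 0.92 to 0.99.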

How the data were processed

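Per the labels and methods, RNA of 2102EP and 2102EP-C1 cultures was made into stranded mRNA libraries, and the authors trimmed reads with Trimmomatic, aligned them with STAR to GRCh38, used featureCounts for the counts of each gene and deposited log2 CPM values. The submitters' processing notes also name limma. Read counts were recovered from the spacing of the deposited log2 values, whole within 0.01 for 100% of values, with a mean prior count of 3 (2102EP) and 2.90 reads (2102EP-C1) and normalization factors of 0.951 to 1.02. Another 4 rows without a name were left out (at most 4.43e-04% of reads). Tests of 12 mouse testis libraries were not made here.

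Tested were genes that reached 10 reads, rescaled to the median depth, in at least 2 (2102EP) or 4 libraries (2102EP-C1), which left 16694 and 17256 genes. For each table a linear model of the log2 values was made with limma 3.58.1 under R 4.3.3 (variance trended on the level), since the plan's count model does not suit log2 values. Adjusted p-values are Benjamini-Hochberg over all genes tested, at a threshold of 0.05. The test was checked on simulated data, with changes larger than those of the 10 genes and without a GC gradient or an outlying library. That check therefore does not cover changes as small as theirs. GC content and lengths came from GENCODE 44. Alternatives were voom on recovered reads, log2(CPM + 1), other filters, scalings and groups in the fit, a replicate block and leaving out each library. Total-count scaling and GC centring were chosen after seeing the data.

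The members and the gene lists were chosen with earlier results of these data known. Named were all 10 members, and of each list up to 4 genes with the smallest p and genes that were called. The methods speak of cultures in biological quadruplicate, while the labels give 2 cultures per group in 2102EP, and the labels were followed. The depth of 25.6 to 48.7 M reads gives at least 991 reads for each member in a control library.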

Additional observations from a re-analysis of the deposited data

Results flagged for a closer look

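In the 20 groups of 4 cultures examined (10 genes in the 2 groups of 2102EP-C1), 2 libraries lay far from the other 3 by Dixon's criterion, where chance gives about 1 in 20 groups. LIN28A was lowest in control replicate 2, at 11.001 log2 CPM, with a gap to the next library of 0.926 of the group's range. PRDM14 was lowest in PFOS replicate 1, at 7.69 log2 CPM, with a gap of 0.866 of the range, in the library that also stood apart over all genes.

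For 3 genes the values went in opposite directions in the 2 lines at 10 nM PFOS, in every treated library against the mean of its controls. The log2 fold change of DPPA4 was -0.17 in 2102EP and 0.080 in 2102EP-C1, that of TDGF1 was -0.15 and 0.19, and that of L1TD1 was -0.12 and 0.32. The difference between the lines was not tested, since the tables were normalized separately, and in 2102EP-C1 none of the 3 passed the threshold. Without PFOS replicate 1 of 2102EP-C1 the values there were 0.088 for DPPA4, 0.11 for TDGF1 and 0.16 for L1TD1.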

How the results depend on the processing

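In 2102EP, NANOG, SOX2, DPPA4, TDGF1 and ZFP42 at both doses and POU5F1 at 10 nM were called under all alternatives keeping both cultures. Some of these calls were lost when single libraries were left out, as given above. Leaving out single libraries gave 3 to 7 of the 10 genes called at 10 nM, 4 to 7 at 5 µM and 0 between doses and in 2102EP-C1, and 2405 to 4938, 2223 to 5051, 0 to 59 and 0 to 7 of all genes. A fit of the 2 groups alone called 1 gene between the doses. Total-count scaling gave 4878 and 4951 genes called, 68.5% and 65.5% of them higher, against 49.8% and 49.2%. It left L1TD1 at 10 nM (-0.063, limma adjusted p = 0.206) and POU5F1 at 5 µM (-0.095, 0.0595) uncalled, and the 2-group fit left L1TD1 uncalled at 10 nM (-0.12, 0.0813). L1TD1 at 5 µM was called by voom (-0.10, 0.0388).

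Reversals concerned values that were not called. With total-count scaling SALL4 was 0.044 at 10 nM and 0.046 at 5 µM, PRDM14 was 0.010 and 0.021, and in 2102EP-C1 POU5F1 was -0.010 and LIN28A -0.020. GC-centred, SALL4 was 0.031 at both doses, PRDM14 0.0079 at 5 µM and ZFP42 0.0069 between doses, the last 4.7e-04 with median-of-ratios scaling. Without single libraries LIN28A ran from -0.031 to 0.042 and SALL4 from -0.027 to 0.0053 at 10 nM. At 5 µM LIN28A ran from -0.0094 to 0.064, SALL4 from -0.017 to 0.015 and PRDM14 from -0.068 to 0.015. Between doses SOX2 ran from -0.0015 to 0.048, SALL4 from -0.0048 to 0.025, L1TD1 from -0.0059 to 0.034 and ZFP42 from -0.071 to 0.069. In 2102EP-C1 NANOG ran from -0.085 to 0.0029, LIN28A from -0.010 to 0.021 and PRDM14 from -0.092 to 0.0011. The causes were not tested.

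Same-numbered cultures did not deviate together (r from -0.05 to 0.03 in 2102EP and from -0.19 to 0.07 in 2102EP-C1), so the numbers do not pair them. With the replicate as a block 7, 7, 0 and 0 of the 10 genes and 4559, 4749, 0 and 0 of all genes were called, with L1TD1 at 5 µM added (limma adjusted p = 0.0396). With 2 cultures per group in 2102EP, leaving out 1 leaves a lone sample that is assumed to vary like the other groups. The filter on low counts removed none of the 2102EP genes.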

Other observations

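Some germ cell markers had small unadjusted p-values in 2102EP-C1 at 10 nM PFOS, although limma called none of them. SYCP3, a component of the synaptonemal complex, averaged 3.26 CPM in controls and 4.70 CPM with PFOS, a difference of 0.52 on the log2 scale (SE 0.11, limma adjusted p = 0.273). MAGEA4, a cancer-testis antigen gene, averaged 1.73 and 2.95 CPM (0.77, SE 0.18, adjusted p = 0.273). For both genes treated and control libraries did not overlap, as for 9.75% of all genes tested. By limma 16% of all genes tested had an unadjusted p under 0.05. Without PFOS replicate 1 the log2 differences were 0.48 for SYCP3 and 0.81 for MAGEA4 (adjusted p = 0.183 and 0.175 by limma). In 2102EP, SYCP3 averaged 1.32 CPM in controls, 1.10 CPM at 10 nM and 0.880 CPM at 5 µM PFOS, and MAGEA4 was not in the table. The 2 genes were picked after their values were seen.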
